A study of Mus musculus with 40 samples.

Results

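Synpr, Igf2bp1, Mfsd2a, Gadd45g and Prlr were followed as single genes through the kidneys and aortas of mice fed a high fat diet. They are the rows of both count tables that carry these 5 gene names, out of 55320 genes listed in both tables, and they had been picked because their kidney levels changed strongly under this diet. Their kidney values under diet are therefore given as a description, without a test, while genotype, the aorta and the relations between libraries of one diet were tested. RNA came from control mice and from mice with an endothelial deletion of the epidermal growth factor receptor, here called WT and KO. The KO mice had EGFR flox/flox alleles on C57BL/6 and the transgene B6.Cg-Tg(Tek-cre)1Ywa, from a C57BL/6J background, which deletes EGFR in cells that use the Tek (Tie2) promoter. This covers endothelial cells, and the promoter is also known to act in blood cell precursors. The WT mice carried the same Cre without loxP sites, so all groups share the transgene. HFD (60% of energy from fat) or standard fat diet (SFD, 10%, called SD in the labels) was given for 18 weeks from an age of 6 weeks. There were 5 libraries for each genotype, diet and tissue. The sex of the animals and the hour of tissue collection are not given in the sources used here.

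The 5 genes act in unrelated processes. Synpr encodes synaptoporin, a membrane protein of synaptic vesicles from the synaptophysin family. Igf2bp1 encodes an RNA-binding protein that stabilises mRNAs and is best known from embryos and tumours, with little expression in most adult tissues. Mfsd2a encodes a sodium-dependent transporter that carries lysophosphatidylcholine with docosahexaenoic acid into cells, and in liver it is a fasting-induced target of PPAR-alpha. Gadd45g belongs to a family of small stress sensors that bind the kinase MAP3K4 and are switched on quickly after cell stress or growth signals. Prlr encodes the prolactin receptor, a cytokine receptor that signals through JAK2 and STAT5. Many tubular genes of the mouse kidney respond to sex steroids and growth hormone, among them the androgen-induced genes Kap, Odc1 and Gusb.

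The genes lie on 5 chromosomes of GRCm38/mm10 (GENCODE M21). Synpr (ENSMUSG00000056296) spans chr14:13284780-13616340 on the plus strand, Igf2bp1 (ENSMUSG00000013415) chr11:95957163-96005940 on the minus strand, and Mfsd2a (ENSMUSG00000028655) chr4:122946850-122961188 on the minus strand. Gadd45g (ENSMUSG00000021453) spans chr13:51846678-51848468 and Prlr (ENSMUSG00000005268) chr15:10177238-10349180, both on the plus strand. Synpr, Igf2bp1 and Prlr overlap other annotated genes, and each of these overlapping genes had 0 counts in every library of both tissues. Because the genes were chosen for large changes under the same diet, the 250 bases before their start sites are shown for comparison. RefSeq windows (GRCm38.p6) were held for 4 of the 5 genes, with 2 start sites for Synpr and 3 for Prlr, and the first start is printed. Sequences run 5′ to 3′ on the strand of the gene and end just before the start site. Capitals mark the searched motifs on either strand, so that a CCAAT box on the other strand is read as its complement. The other motifs were the E-box CACGTG, the nuclear receptor motif AGGTCA, the AP-1 motif TGANTCA, the STAT motif TTCNNNGAA and the TATA box written as TATAAA.
Synpr, chr14:13284530-13284779, plus strand: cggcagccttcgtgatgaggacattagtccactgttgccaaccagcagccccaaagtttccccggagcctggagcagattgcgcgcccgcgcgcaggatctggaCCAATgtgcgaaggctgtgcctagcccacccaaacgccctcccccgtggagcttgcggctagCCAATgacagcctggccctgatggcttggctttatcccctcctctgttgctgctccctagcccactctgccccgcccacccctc
Mfsd2a, chr4:122961189-122961438, minus strand: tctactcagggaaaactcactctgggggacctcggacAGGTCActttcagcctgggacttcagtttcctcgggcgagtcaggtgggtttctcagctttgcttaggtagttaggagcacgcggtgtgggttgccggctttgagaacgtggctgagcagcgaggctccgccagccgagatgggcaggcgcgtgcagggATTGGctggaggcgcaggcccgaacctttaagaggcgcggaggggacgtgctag
Gadd45g, chr13:51846425-51846674, plus strand: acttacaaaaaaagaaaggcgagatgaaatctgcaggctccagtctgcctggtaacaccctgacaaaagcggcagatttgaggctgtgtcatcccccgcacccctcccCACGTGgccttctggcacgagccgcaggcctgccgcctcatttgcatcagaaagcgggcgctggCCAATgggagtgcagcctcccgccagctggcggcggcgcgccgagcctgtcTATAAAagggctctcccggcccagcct
Prlr, chr15:10176988-10177237, plus strand: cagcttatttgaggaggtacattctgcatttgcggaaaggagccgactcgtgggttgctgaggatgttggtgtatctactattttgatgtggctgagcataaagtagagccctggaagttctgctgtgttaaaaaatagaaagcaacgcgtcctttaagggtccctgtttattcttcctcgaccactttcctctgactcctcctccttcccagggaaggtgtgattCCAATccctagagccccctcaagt

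No searched motif other than CCAAT was found in more than 1 of these 4 windows. CCAAT was in each of the printed windows and in 33.8% of 32851 windows of this length. Gadd45g held CACGTG 142 bases and TATAAA 27 bases before the start, motifs that stood in 6.02% and 12.4% of all windows. Mfsd2a held AGGTCA 213 bases before its start, as did 14% of windows. The other Synpr start (chr14:13453708-13453957) held none of the motifs. Of the other Prlr starts, chr15:10223656-10223905 held TTCNNNGAA (7.02% of windows) and chr15:10293401-10293650 held TGANTCA (6.75%). These matches describe letters in a window and not binding.

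Kidney libraries held between 19643033 and 48833447 counts (median 24182781) and aortic libraries between 17520161 and 36452741 (median 19683938). Levels are given as FPM, the counts per library scaled to the TMM-normalised library size (CPM). Some libraries stood apart. The kidney libraries a1 (KO HFD) and a12 (WT HFD) differed by less than the sampling noise, with a median chi-square over genes of 0.0242 where noise alone gives 0.455 and the next pair had 1.70, and the aortic libraries R-1 (WT SFD) and R-12 (KO SFD) did so as well (0.0255). Each pair crosses the genotypes, so at least one label of each pair is in doubt, and the diet effects in kidney that move with a1 and a12, and the aortic Gadd45g results, are also given without them. The SFD kidneys a8, a9 (KO) and a17 (WT) had summed immediate-early genes of 2601.02 to 2809.01 FPM, against 137.268 to 265.418 FPM in the other 17. The WT SFD kidney a18 had the lowest podocyte and endothelial marker sums of all 20 kidneys (74.0 and 128 FPM). Egfr did not differ between genotypes in whole kidney (log2 fold change -0.01, SE 0.12, adjusted p = 0.991, edgeR quasi-likelihood test with Benjamini-Hochberg adjustment), where cells other than endothelium also express it.

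In kidney, the group means of 4 of the genes were lower under HFD and that of Prlr was higher, in both genotypes. Synpr showed the widest change. Among SFD kidneys it reached 3.13, 7.90, 9.18, 10.2 and 12.6 FPM in WT and 1.22, 2.56, 5.69, 10.2 and 10.4 FPM in KO. Among HFD kidneys it reached 0.0384, 0.0421, 0.0739, 0.359 and 1.20 FPM in WT and 0.0517, 0.0875, 0.306, 0.901 and 1.20 FPM in KO. No HFD kidney reached the lowest SFD kidney, but the margin was narrow, since the highest HFD values came from the near-identical libraries a1 and a12 and the lowest SFD value from the KO kidney a6. The lowest HFD values rest on 1 count per library. Group means fell from 8.60 ± 3.51 to 0.343 ± 0.497 FPM in WT and from 6.01 ± 4.23 to 0.509 ± 0.514 FPM in KO (SD, n = 5). The fitted log2 fold changes were -4.43 (SE 0.83) and -3.43 (SE 0.80). In WT, Synpr ranked as the second lowest of 15943 tested genes by fold change.

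**Figure D1:**
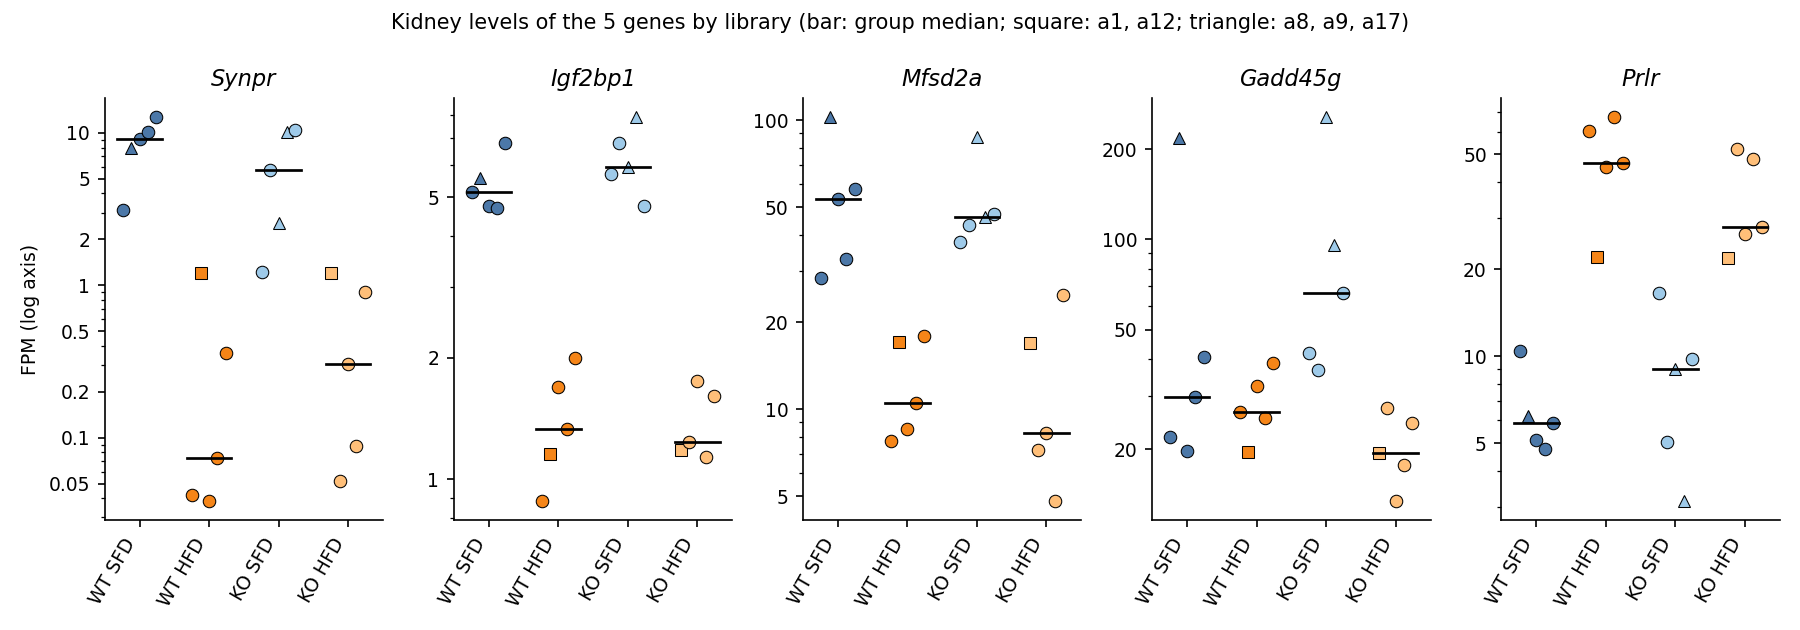
Levels of the 5 genes in 20 kidney libraries, in FPM on a log axis, by genotype and diet, with bars at group medians. Each point is a library, squares are a1 and a12, triangles are a8, a9 and a17. Igf2bp1, Mfsd2a, Prlr and Synpr kept the diets apart, whereas Gadd45g overlapped in WT.

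Igf2bp1, the RNA-binding protein gene, had a narrow spread within groups. SFD kidneys held 4.71, 4.76, 5.15, 5.58 and 6.82 FPM in WT and 4.75, 5.72, 5.95, 6.81 and 7.89 FPM in KO. HFD kidneys held 0.883, 1.16, 1.33, 1.69 and 2.00 FPM in WT and 1.14, 1.18, 1.24, 1.61 and 1.75 FPM in KO. The diets were far apart in both genotypes, and the spread within a group was small beside the gap. The log2 fold changes were -1.94 (SE 0.20) in WT and -2.17 (SE 0.21) in KO. The SFD mean of 5.41 FPM in WT lay close to the level of 5 FPM that a called gene had to exceed in 1 group.

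Mfsd2a, the lysophosphatidylcholine transporter, was lower in every HFD kidney. SFD kidneys held 28.5, 33.1, 53.2, 57.7 and 102 FPM in WT and 38.0, 43.5, 46.2, 47.4 and 87.1 FPM in KO, against 7.74, 8.57, 10.5, 17.04 and 17.9 FPM and 4.81, 7.23, 8.27, 16.9 and 24.7 FPM under HFD. The 2 highest SFD values belonged to a17 and a8, and the highest HFD value, in the KO kidney a5, stayed below the lowest SFD value. The log2 fold changes were -2.14 (SE 0.44) in WT and -2.07 (SE 0.44) in KO, and without a8, a9 and a17 they were -1.79 and -1.79.

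Gadd45g was the least uniform. Under SFD, WT kidneys held 19.7, 21.9, 29.9, 40.5 and 218 FPM and KO kidneys 36.6, 41.7, 66.1, 96.0 and 255 FPM. Under HFD, WT kidneys held 19.5, 25.4, 26.5, 32.5 and 38.8 FPM and KO kidneys 13.4, 17.6, 19.4, 24.5 and 27.3 FPM. In WT the diets overlapped across nearly the whole range apart from a17, while in KO every SFD kidney was above every HFD kidney. On the log2 scale HFD differed from SFD by -1.21 (SE 0.63) in WT and by -2.28 (SE 0.65) in KO. Without a8, a9 and a17 the value was 0.028 (SE 0.26) in WT and -1.24 (SE 0.27) in KO, where the KO SFD mean was then 48.1 ± 15.8 FPM (SD, n = 3) against 20.5 ± 5.53 FPM (SD, n = 5) under HFD.

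Prlr was the only one of the genes that was higher under HFD. SFD kidneys held 4.75, 5.11, 5.87, 6.22 and 10.4 FPM in WT and 3.15, 5.03, 9.02, 9.78 and 16.5 FPM in KO. HFD kidneys held 22.1, 45.3, 46.6, 60.2 and 67.2 FPM in WT and 21.9, 26.6, 28.1, 48.3 and 52.2 FPM in KO. The diets did not overlap, and the lowest HFD libraries were again a1 and a12. The log2 fold changes were 2.89 (SE 0.41) in WT and 2.03 (SE 0.40) in KO, or 7.40-fold and 4.09-fold, and 3.07 and 2.17 without the pair.

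By the call used for diet (adjusted p below 0.05, fold change above 1.5 and a group mean above 5 FPM), 3 of the genes were lower and 1 was higher in WT, where 0.909% and 1.27% of all tested genes were called in these directions. In KO, 4 were lower and 1 higher, with 0.928% and 1.23% of all genes called. Diet groups did not overlap for 3 genes that were lower and 1 that was higher in WT (3.64% and 3% of all genes), for 4 and 1 in KO (4.07% and 3.74%), and for 3 and 1 over both genotypes (1.49% and 1.35%). Nothing is read from these counts because the genes were chosen on the same contrasts. In whole tissue, fewer cells of a type and less RNA per cell cannot be told apart.

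Leaving out single libraries touched Synpr and Gadd45g most. In WT, Synpr moved from -4.43 to -6.02 without a12, and the other WT fits lay between this value and -4.17. In KO it moved to -4.14 without a1, and its call was lost without a9 and without a10, although the log2 fold change stayed between -4.14 and -3.14. The KO SFD mean of Synpr, 6.01 FPM, was close to the 5 FPM needed for a call. It included 10.2 FPM in a9 and 10.4 FPM in a10. For Gadd45g in WT the log2 fold change was 0.030 without a17. In KO it was -1.56 without a8, and the call was kept in 2 of 10 fits, being lost without a1, a2, a3, a4, a5, a8, a9 or a10. Igf2bp1 (-2.09 to -1.81 in WT and -2.26 to -2.07 in KO), Mfsd2a (-2.31 to -1.79 and -2.47 to -1.81) and Prlr (2.74 to 3.13 and 1.81 to 2.39) kept their calls in each of these fits.

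**Figure D2:**
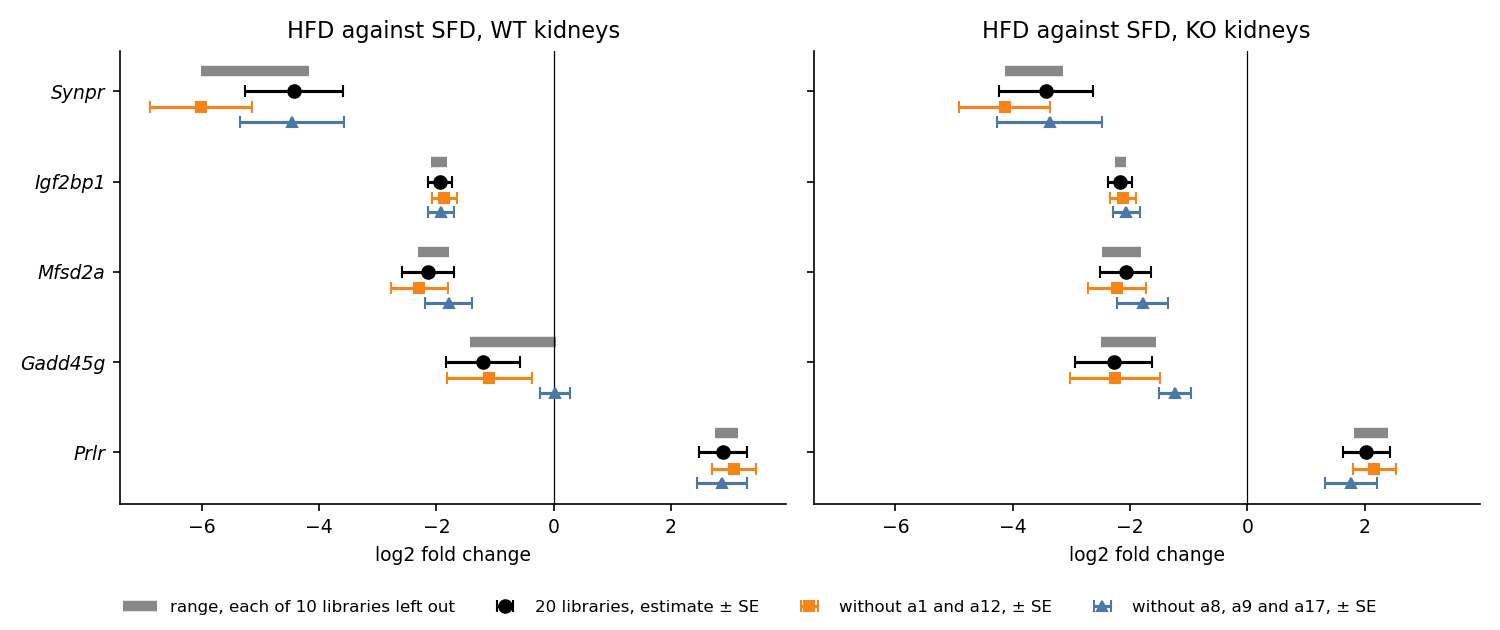
Log2 fold change of HFD against SFD in WT (left) and KO (right) kidneys. Black circles are the fit of 20 libraries with its SE, orange squares and blue triangles are fits without a1 and a12 or without a8, a9 and a17, and grey bars span the fits that leave out each of the 10 libraries compared. Gadd45g in WT reached 0.028 without a8, a9 and a17, and Synpr in WT reached -6.01 without the pair.

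The difference of the diet effect between genotypes (KO minus WT, as a description) had wide errors. It was 1.00 (SE 1.11) for Synpr, -0.23 (SE 0.28) for Igf2bp1, 0.07 (SE 0.60) for Mfsd2a, -1.07 (SE 0.89) for Gadd45g and -0.86 (SE 0.55) for Prlr on the log2 scale. Single libraries set several of these values. Without a12 the Synpr difference was 2.60 and without a1 it was 0.27, the Gadd45g difference was -2.30 without a17 and -0.35 without a8, and the Mfsd2a difference changed its sign, from 0.33 without a8 to -0.33 without a5.

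Genotype was tested because it did not enter the choice of the genes. Averaged over both diets and with all 20 libraries, KO and WT kidneys differed by less than the error in all 5 genes. The log2 fold changes were -0.01 (SE 0.69) for Synpr, 0.09 (SE 0.14) for Igf2bp1, -0.03 (SE 0.30) for Mfsd2a, 0.05 (SE 0.44) for Gadd45g and -0.02 (SE 0.27) for Prlr. Their adjusted p-values lay between 0.892 and 0.999 (edgeR quasi-likelihood test with Benjamini-Hochberg adjustment). The near-identical a1 and a12 entered as separate KO and WT samples, which draws the HFD groups together. For Synpr the log2 fold change was -0.37 without a1 and 0.79 without a12, without a call in either fit. In this comparison 0 of 15943 genes were called by edgeR (0%), 768 had an unadjusted p below 0.05, and the DESeq2 Wald test called 1. Single libraries moved the count at an unadjusted p below 0.05, which was 2162 without a18, 2130 without a12, 2055 without a3 and 398 without a14, and 1360 without a1 and a12, with 0 genes called by edgeR in each of these fits. It was also lower by over 1.5 times without a2 (469), a4 (462), a11 (505), a19 (474) or a20 (469). For KO against WT under HFD alone, the edgeR count was 546 with all libraries. It was 1622 without a1 and a12, 2865 without a12 and 589 without a1, again with 0 genes called. Within each diet, where the libraries are shared with the diet contrasts, KO against WT ranged from -0.51 (SE 0.69) for Synpr to 0.59 (SE 0.62) for Gadd45g under SFD and from -0.48 (SE 0.63) for Gadd45g to 0.49 (SE 0.87) for Synpr under HFD. The errors were widest for Synpr and Gadd45g and narrowest for Igf2bp1, so that the same genotype difference would be harder to detect in the first pair.

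Compared per length of exon sequence, the order of the genes turned with the diet. In WT SFD kidneys the mean level per kb was 56.3 FPM for Gadd45g, 24.4 for Mfsd2a, 0.911 for Synpr, 0.558 for Igf2bp1 and 0.422 for Prlr. Under HFD it was 24.3 for Gadd45g, 5.50 for Mfsd2a, 3.15 for Prlr, 0.146 for Igf2bp1 and 0.0363 for Synpr. Prlr thus went from the lowest of the 5 to the third, and Synpr to the last. The per-kb level of Prlr is counted over 15339 bases of exons from all annotated isoforms, so a short isoform would stand higher than this value.

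Within a diet, libraries with more Synpr had less Prlr. Over the 10 SFD kidneys, Pearson's r of log2(FPM + 0.5) was -0.76 (permutation p = 0.00866, adjusted 0.127) and Spearman's rho -0.49 (permutation p = 0.153, adjusted 0.547). Over the 9 HFD kidneys, with a1 and a12 averaged as 1, r was -0.86 (exact permutation p = 0.00577, adjusted 0.127) and rho -0.63 (exact permutation p = 0.0760, adjusted 0.440). Leaving out the 2 libraries farthest from the median of Prlr changed r to -0.55 under SFD and -0.85 under HFD, and without a8, a9 and a17 it was -0.77 under SFD. In the other relations, the 2 farthest libraries were taken from the median of Mfsd2a or of the score. Under HFD, Synpr rested on 1 or 2 counts in a2, a4, a11, a13 and a14, below the 0.5 FPM added before the logarithm. The negative sign was thus seen in both diets, but of the 50 relations computed none passed the Benjamini-Hochberg adjustment at 0.05. Synpr and Mfsd2a went up together under HFD with r = 0.80 (exact permutation p = 0.0102, adjusted 0.127) and rho = 0.60 (exact permutation p = 0.0968, adjusted 0.440), with r = 0.76 without the 2 farthest libraries. The same pair under SFD gave r = 0.13 (permutation p = 0.731, adjusted 0.904) and rho = 0.18 (permutation p = 0.632, adjusted 0.865).

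**Figure D3:**
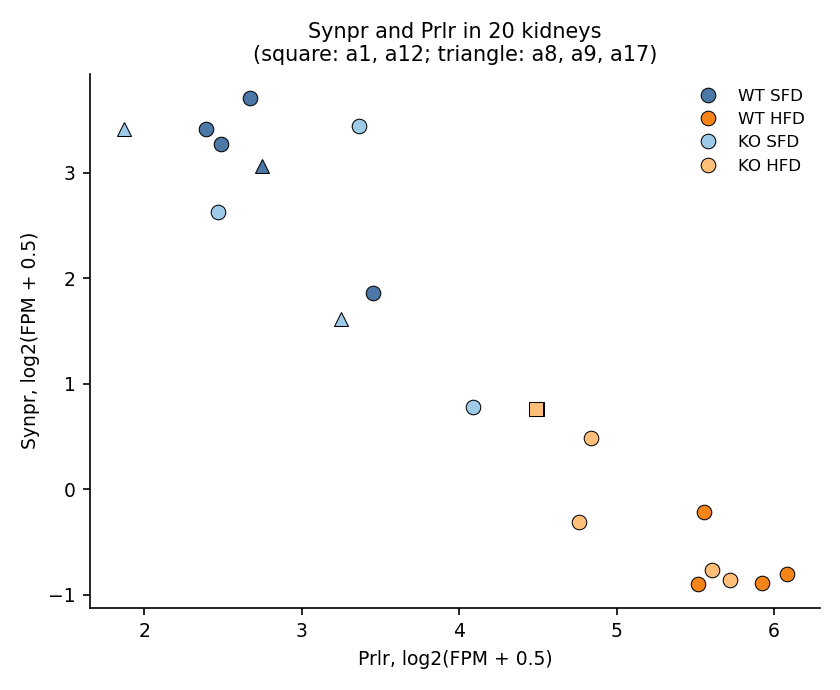
Synpr against Prlr in 20 kidneys, both as log2(FPM + 0.5), coloured by genotype and diet. Squares (a1 and a12, drawn over each other) and the KO SFD kidney a6 lie between the diets, and within each diet Synpr is lower where Prlr is higher (r = -0.76 and -0.86).

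Synpr was also set against clock genes and genes with higher levels in male kidneys. The clock score is the mean log2 level of 6 genes of the Dbp side minus that of 3 genes of the Arntl side. Under SFD, Synpr was lower where this score was higher, with r = -0.74 (permutation p = 0.0150, adjusted 0.150) and rho = -0.66 (permutation p = 0.0439, adjusted 0.440), and r = -0.52 without the 2 farthest libraries. The SFD kidneys with the highest scores were a16 (2.71), a6 (2.34) and a8 (2.06), and these 3 also had the lowest Synpr. Under HFD the relation of Synpr to this score had r = -0.12 (exact permutation p = 0.773, adjusted 0.905) and rho = -0.18 (exact permutation p = 0.644, adjusted 0.865). A score of 11 male-higher renal genes, related to the 5 genes after the data had been seen, followed Synpr with r = 0.64 under SFD (permutation p = 0.0480, adjusted 0.200) and 0.75 under HFD (exact permutation p = 0.0193, adjusted 0.161), with rho of 0.72 (permutation p = 0.0233, adjusted 0.440) and 0.62 (exact permutation p = 0.0857, adjusted 0.440). Without the 2 farthest libraries these r were 0.63 and 0.69. Other genes had like values under HFD. Prlr had r = -0.74 (exact permutation p = 0.0275, adjusted 0.178) and rho = -0.83 (exact permutation p = 0.00827, adjusted 0.413), with r = -0.53 without the 2 farthest libraries. Mfsd2a had r = 0.73 (exact permutation p = 0.0285, adjusted 0.178) and rho = 0.68 (exact permutation p = 0.0503, adjusted 0.440), with r = 0.88 without them. The part of clock phase or of hormonal state in the level of Synpr was not tested.

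Gadd45g was set against the immediate-early genes, the transcription factors and regulators such as Fos, Egr1 and Atf3 that are induced within minutes. The immediate-early score (the mean of 13 genes on the log2 scale) was 3.43 in a17, 3.24 in a8 and 3.65 in a9, against -1.17 to 0.03 in the other 17 kidneys. Gadd45g was highest in these 3 libraries, at 218, 255 and 96.0 FPM. As they form a separate cluster, the relation was computed in the other 7 SFD kidneys, where r was 0.79 (exact permutation p = 0.0391, adjusted 0.195) and rho 0.71 (exact permutation p = 0.0881, adjusted 0.440), with r = 0.44 without the 2 farthest libraries. Under HFD r was 0.13 (exact permutation p = 0.741, adjusted 0.904) and rho -0.07 (exact permutation p = 0.880, adjusted 0.957). All 3 libraries were SFD kidneys, and the part of the immediate-early level in the diet difference of Gadd45g was not tested beyond the fits without them.

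**Figure D4:**
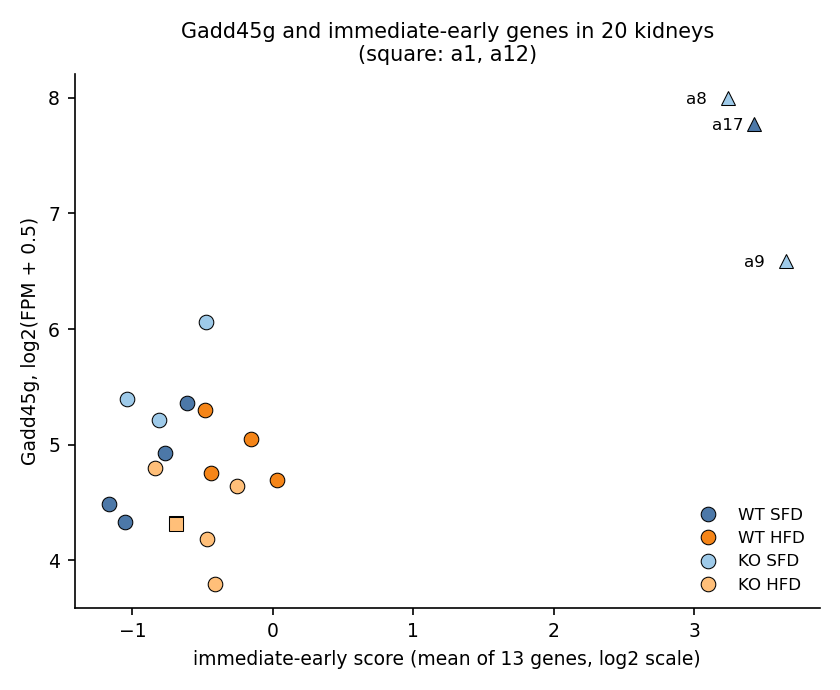
Gadd45g as log2(FPM + 0.5) against the immediate-early score in 20 kidneys. Triangles are a8, a9 and a17, which have the highest scores and Gadd45g levels, and the 2 squares lie over each other.

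Over all 20 kidneys, the genes most like each of the 5 were listed by Pearson's r of log2(FPM + 0.5), as a description. These r hold the diet difference, and for Gadd45g also the high levels of a8, a9 and a17. Synpr was closest to Snx31 (r = 0.95), Msantd3, Odc1, Mas1 and Slco1a1, and Odc1, the enzyme that makes putrescine, and the organic anion transporter Slco1a1 are both in the male-higher list. Igf2bp1 was closest to Akr1c14 (0.96), Acsm3, Cd36, Mpv17l and Lpl, which include the fatty acid receptor Cd36 and lipoprotein lipase. Mfsd2a was closest to Mpv17l (0.93), Sh3bp2, Bsdc1, Tmco3 and March9, and Gadd45g to genes that included Tob1 (0.91), 9830144P21Rik, Midn and Cebpd. Prlr was closest to Ugt1a10 (0.97), Abcb1b, Slc7a12, Clic6 and Slc17a4, of which Ugt1a10 and Abcb1b have near-identical relatives that may share reads.

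When deviations from the group means were used, so that diet and genotype were taken out, other genes came up. Synpr stayed with Snx31 (r = 0.85) and was next to Gusb (0.85), the androgen-induced beta-glucuronidase, and Rnf180 (0.83). Gadd45g was closest to Spry4 (0.93), Dusp6 (0.90) and Cebpd (0.90), of which Spry4 and Dusp6 are feedback inhibitors of the ERK pathway. The r of Gadd45g include a8, a9 and a17, the kidneys with its highest levels, and were not computed without them. Prlr was closest to Abcb1a (0.92), Wfdc16 (0.90) and Kcnc2 (0.90). Igf2bp1 (9330162G02Rik, 0.84) and Mfsd2a (Nphp4, 0.83) had partners at values close to those of Synpr, and without a1 and a12 the r was 0.82 for Igf2bp1 and 0.81 for Synpr with Snx31.

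Other genes of the same families and pathways were counted by the same call. Of 85 other genes in 10 lists, 66 were tested in kidney. In WT 4 of them were called higher (1.27% of all genes) and 1 lower (0.909%), and in KO 4 higher (1.23%) and 1 lower (0.928%). No relative of the 5 genes in their families was called. Among synaptophysin relatives, Sypl had 249 FPM in WT SFD and 205 FPM in WT HFD kidneys (log2 fold change -0.28, SE 0.07, adjusted p = 0.0232, edgeR quasi-likelihood test with Benjamini-Hochberg adjustment), below the fold required for a call. Syp itself was listed at 0 in every library, as were the genes of several other chromosomes, which hold none of the 5 genes. Sv2a, another synaptic vesicle protein, went the opposite way to Synpr and rose in both genotypes, with log2 fold changes of 1.21 (SE 0.10, adjusted p = 4.6e-07) in WT and 0.83 (SE 0.10, adjusted p = 1.78e-05) in KO by the same edgeR test. Syn2, a vesicle phosphoprotein, rose in WT by 0.73 (SE 0.11, adjusted p = 0.000182, edgeR). In KO, 1 of the 5 tested synaptic vesicle genes was called higher, but 2 were higher by adjusted p below 0.05 alone (edgeR). Without a1 and a12, 2 were called higher in KO. Nerve markers summed to 5.20 to 10.3 FPM and adrenal chromaffin markers to at most 0.350 FPM in any kidney, and Th and Pnmt were at 0 in all of them.

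Igf2bp2, the relative of Igf2bp1, had 6.82 FPM in WT SFD and 9.73 FPM in WT HFD kidneys (log2 fold change 0.51, SE 0.20, adjusted p = 0.148, edgeR), and Igf2bp3 stayed below 1 FPM. Of 6 tested partners and targets of Igf2bp1, 0 were called by edgeR in either genotype. Of the 10 tested genes for lysophosphatidylcholine and long-chain polyunsaturated fatty acids, 0 were called in WT and 2 were called higher in KO, namely Elovl2, an elongase on the way to docosahexaenoic acid, by 0.63 (SE 0.14, adjusted p = 0.00735, edgeR) and Enpp2, which cleaves lysophosphatidylcholine, by 0.65 (SE 0.11, adjusted p = 0.000845, edgeR). By adjusted p below 0.05 alone (edgeR), 2 of the 10 were higher and 0 lower in WT, and 2 were higher and 2 lower in KO. Over both genotypes 0 of them were called. Among 15 tested targets of PPAR-alpha, Ehhadh of peroxisomal fatty acid oxidation fell by 0.61 and 0.68 (adjusted p = 0.0007 and 0.000257, edgeR). Cyp4a14, a fatty acid hydroxylase, rose in WT by 1.94 (SE 0.44, adjusted p = 0.0116, edgeR). In WT, 2 genes of this list were called higher and 1 lower (1.27% and 0.909% of all genes). In KO, 1 was called higher and 1 lower (1.23% and 0.928%), and not all of these are named here. The list thus held calls in both directions in both genotypes. The median of its 15 log2 differences stood at -0.18 for WT and -0.01 for KO kidneys, against -0.00025 and -0.00068 over all genes.

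Gadd45a and Gadd45b had log2 fold changes of -0.54 (SE 0.40) and -0.69 (SE 0.73) in WT and -1.02 (SE 0.40) and -2.003 (SE 0.74) in KO, with adjusted p-values of 0.13 to 0.654 (edgeR quasi-likelihood test). None of the 12 partners and p53 targets was called. For Prlr, the related growth hormone receptor Ghr was lower under HFD by less than 1.5-fold, with log2 fold changes of -0.46 (SE 0.07, adjusted p = 0.000145, edgeR) in WT and -0.54 (SE 0.07, adjusted p = 2.28e-05, edgeR) in KO. None of the 8 tested genes of prolactin signalling, such as Jak2 and Stat5b, was called in either genotype. Over both genotypes, 1 of the 8 was called lower, as were 1.22% of all genes. Prl was at 0 in every kidney.

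Lists of tubular genes held calls for diet as well. Over all tested genes, 1.27% were called higher and 0.909% lower in WT, and 1.23% and 0.928% in KO. Of 11 genes with higher levels in male kidneys, 8 fell in WT and 6 in KO by the same call, among them Odc1 (-1.19 and -1.03), Slco1a1 (-1.54 and -1.29), Acsm3 (-1.82 and -1.85) and Cyp2e1 (-1.03 and -0.76). Of 3 female-higher genes, Slc7a12 rose in both genotypes (3.17 and 1.88) and Cyp4a14 in WT, while Akr1c18 had -1.12 in WT and -1.02 in KO without a call and fell over both genotypes (-1.07, SE 0.36, adjusted p = 0.0493, edgeR). Of 4 markers of the S3 segment of the proximal tubule, Slc22a7 and Atp11a fell in both genotypes and Slc7a13 in KO, while Slc5a10 rose in KO. By adjusted p below 0.05 alone (edgeR), 1 of the 4 was higher and 3 were lower in each genotype. The S3 markers summed to 3342 to 3949 FPM in WT SFD against 2010 to 2610 FPM in WT HFD kidneys, and to 3135 to 3781 against 2009 to 2412 FPM in KO. The sum of 6 general proximal tubule markers lay between 7619 and 9866 FPM under SFD and between 8124 and 9650 FPM under HFD. Among these 6, Slc5a2 rose in both genotypes (0.81 and 0.85). Of 3 markers of the distal convoluted tubule, Pvalb rose in both (1.27 and 1.63), and the list summed to 753 to 1241 FPM under SFD and 923 to 1853 FPM under HFD. Of 4 markers of the thick ascending limb, Slc12a1 and Egf fell in KO (-0.62 and -0.59), calls that were lost without a1 and a12. Leukocyte markers (6 genes, of which Lyz2 was called higher in WT, a call lost without a1 and a12, and 0 in KO by edgeR) summed to 173 to 347 FPM in WT SFD and 289 to 414 FPM in WT HFD kidneys, and to 192 to 334 and 283 to 453 FPM in KO. The part of these shifts in the levels of the 5 genes was not tested.

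The aorta differed from the kidney in which of the genes it expressed. Gadd45g was the only one to pass the expression filter there. It held 47.3, 72.5, 88.4, 100.1 and 107.6 FPM in WT SFD, 60.1, 67.7, 76.6, 98.0 and 241.6 FPM in WT HFD, 70.7, 86.6, 88.1, 99.5 and 239.6 FPM in KO SFD, and 60.5, 62.8, 143, 185 and 395 FPM in KO HFD aortas. The 4 groups overlapped. HFD differed from SFD by 0.39 (SE 0.49, adjusted p = 1.00) on the log2 scale in WT and by 0.53 (SE 0.49, adjusted p = 0.987) in KO, and 0.46 (SE 0.35, adjusted p = 0.961) over both genotypes (edgeR quasi-likelihood test with Benjamini-Hochberg adjustment). For KO against WT over both diets it was 0.56 (SE 0.35, adjusted p = 0.685, edgeR). Over both genotypes 4 of 15122 genes (0.0265%) were called for HFD and 3 (0.0198%) for genotype. The genotype count rested on the doubtful libraries, since it was 131 of 15254 genes without R-1 and R-12 and 123 without R-12 alone. It was 12 without R-10, 5 without R-1, 4 without R-11 or R-20, 1 without R-18, 0 in the 14 fits that each left out 1 of the other libraries, and 45 with the DESeq2 Wald test. The HFD count was 1 without R-1 and R-12, 1 to 6 with single libraries left out and 17 with the DESeq2 Wald test. Gadd45g was not called in the fit without this pair, with 0.43 (SE 0.38, adjusted p = 1.00) for HFD over both genotypes and 0.62 (SE 0.38, adjusted p = 0.622) for KO against WT (edgeR). The highest Gadd45g levels in WT HFD and KO HFD came from R-9 and R-19. R-19 had the highest immediate-early score of all aortas (2.72). The score of R-9 (0.66) lay within the range of -2.06 to 1.49 of the other 18 aortas, as did that of R-11 (0.45), the highest of the KO SFD aortas in Gadd45g.

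The other 4 genes were near the detection limit in aorta. Synpr had 0 to 5 counts per library, Igf2bp1 0 to 2, Mfsd2a 0 to 13 and Prlr 0 to 17. Igf2bp1 had 0 counts in all 5 WT HFD aortas, which allows up to 0.151 to 0.175 FPM per library (3 counts, counting error only). In kidney, the lowest group means were 0.343 FPM for Synpr, 1.38 FPM for Igf2bp1, 12.4 FPM for Mfsd2a and 6.48 FPM for Prlr, while the highest group means in aorta were 0.159, 0.0166, 0.321 and 0.414 FPM. As the tissues were normalised separately, these levels stand side by side without a test. Fitted without the filter, their adjusted p-values for HFD over both genotypes lay between 0.763 and 1.00 (edgeR quasi-likelihood test), with SEs of up to 0.74 on the log2 scale.

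**Figure D5:**
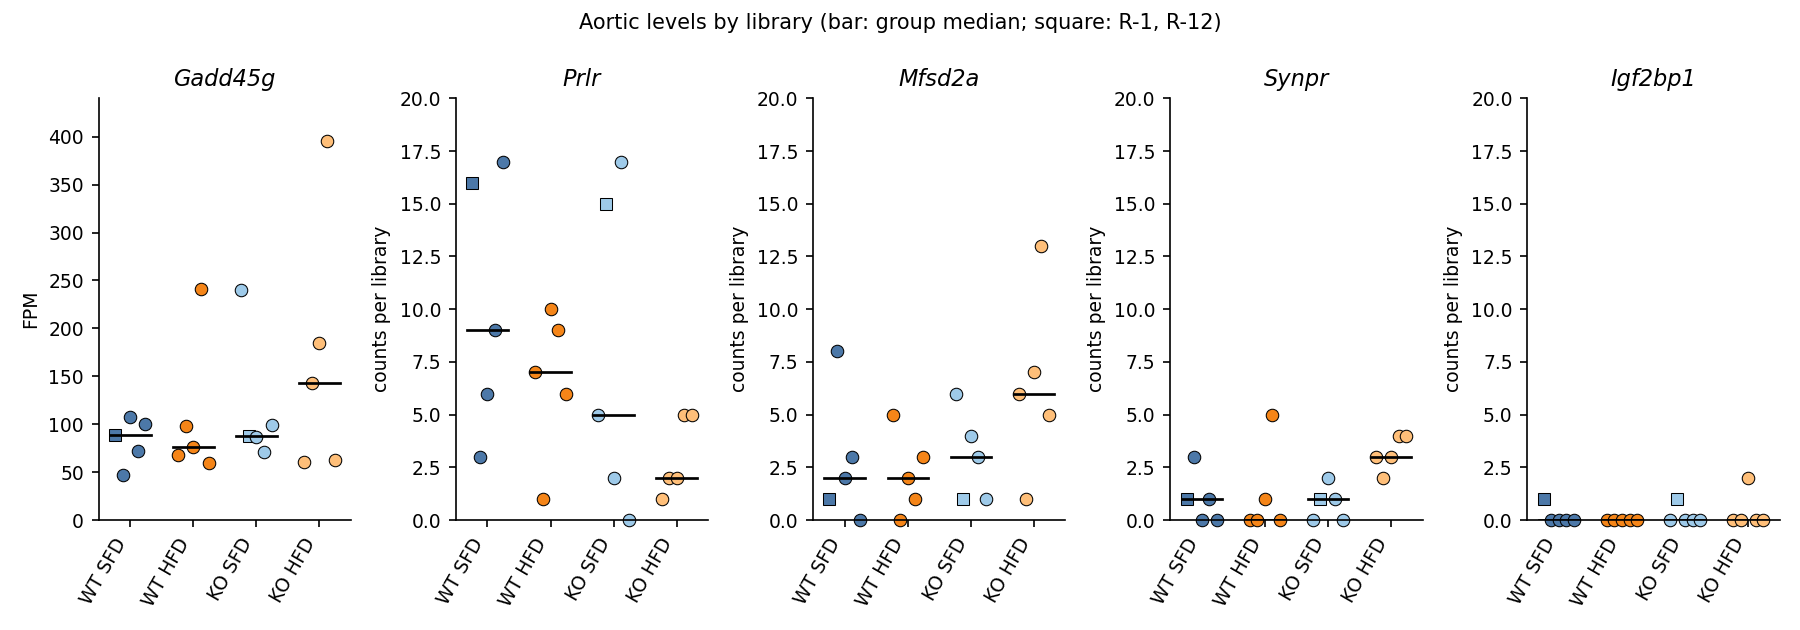
Aortic levels by library and group, in FPM for Gadd45g and in counts per library for the other 4 genes, with bars at group medians. Squares are the near-identical libraries R-1 and R-12. Gadd45g ranged from 47.3 to 395 FPM with overlapping groups, and no other gene exceeded 17 counts.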

How the data were processed

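The authors isolated total RNA, sequenced paired-end libraries on an Illumina HiSeq system and counted reads per gene with featureCounts on GRCm38/mm10. The submitters' processing notes name HISAT2 2.1.0 for mapping where the methods name TopHat2. The strand setting is not given in the sources used here. The tables deposited by the authors hold raw counts, neither normalised nor filtered. Each tissue was fitted with its 20 libraries in edgeR 4.0.16 (R 4.3.3) with TMM scaling. Genes were kept by filterByExpr on the groups, dispersions were estimated robustly for the quasi-likelihood test, and p-values were adjusted by Benjamini-Hochberg over 15943 genes in kidney and 15122 in aorta. DESeq2 1.42.0, other filters, left-out libraries, and clock and adipocyte scores as covariates were alternatives. The fits were tested on simulated data. Libraries were taken as separate samples as labelled, and p-values measure the spread between them. The 3-count limits cover counting error only. Correlations used log2(FPM + 0.5) and permutation or exact permutation tests, two-sided, computed with NumPy 2.4.6. Spearman's rho came from SciPy 1.17.1. Genes named are the 5 genes, called or related genes of the lists, and the genes most like each of the 5; some genes these rules select are not reported here. The members and lists were chosen with earlier results of these data known.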

Additional observations from a re-analysis of the deposited data

Results flagged for a closer look

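Of 24 groups of 5 libraries (the 5 genes in kidney and Gadd45g in aorta), 7 were flagged by Dixon's test at 95%. In each, the gap of the highest library to the next one was large against the range of the group. For normally spread and independent values this test flags about 1 in 20 groups, or 1.2 of 24. FPM were used without a logarithm and the groups share libraries, so this rate may not hold here. No excess over chance is read from the 7. Synpr in WT HFD kidneys was 1.20 FPM in a12, with the next library at 0.359 FPM. Mfsd2a in KO SFD kidneys was 87.1 FPM in a8, with the next at 47.4 FPM. Gadd45g was 255 FPM in a8 among KO SFD kidneys (next 96.0 FPM) and 218 FPM in a17 among WT SFD kidneys (next 40.5 FPM). Prlr in WT SFD kidneys was 10.4 FPM in a16, with the next at 6.22 FPM. In aorta, Gadd45g was 241.6 FPM in R-9 among WT HFD libraries (next 98.0 FPM) and 239.6 FPM in R-11 among KO SFD libraries (next 99.5 FPM). The library a12 is one of the near-identical pair, and a8 and a17 are among the 3 kidneys with high immediate-early genes.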

How the results depend on the processing

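Of 292 alternatives to 40 results, other than leaving out one library, 280 gave the same direction and side of the threshold or moved by less than the spread between replicates. For the diet effects of single genes in kidney, a change of call was not counted, so lost calls given below are among the 280. Without both a1 and a12, the log2 fold change of Synpr under HFD in WT was -6.01 and its difference between genotypes 1.87. Without a8, a9 and a17, Gadd45g under HFD was 0.028 in WT and -1.24 in KO. Averaged over diets, KO against WT changed its sign, always near 0 or with wide errors, for Synpr with the DESeq2 Wald test (0.018) and without the pair (0.43), for Mfsd2a (0.00038) and Prlr (0.11) without a8, a9 and a17, and for Prlr with the clock score as covariate (0.012). In KO, the call of Synpr under HFD was lost without a8, a9 and a17 (-3.37), and that of Gadd45g without the pair, without the filter on low counts and with the clock covariate (-2.26 in each). The causes were not tested. The number of pathway and family genes called lower under HFD in WT was 2 without the pair and 7 by adjusted p alone, and 8 by adjusted p alone in KO.

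When each library of a comparison was left out in turn, the log2 differences ranged as follows. HFD against SFD in WT kidneys gave -6.02 to -4.17 for Synpr, -1.43 to 0.030 for Gadd45g. The diet effect in KO minus WT gave 0.27 to 2.60 for Synpr, -2.30 to -0.35 for Gadd45g. KO against WT gave -0.33 to 0.28 for Mfsd2a, -0.13 to 1.83 for Gadd45g under SFD. It gave -0.24 to 2.09 for Synpr, -0.15 to 0.13 for Igf2bp1, -0.39 to 0.21 for Mfsd2a under HFD. Over both diets it gave -0.37 to 0.79 for Synpr, -0.23 to 0.15 for Mfsd2a, -0.31 to 0.68 for Gadd45g, -0.20 to 0.10 for Prlr. In aorta, HFD against SFD for Gadd45g ranged over -0.14 to 0.54 in WT and -0.037 to 0.97 in KO, lowest without R-9 and R-19. Of the 5 genes, 4 were called in WT in each of these fits and 3 to 5 in KO. For Synpr the ends came without a12 and a13 (diet in WT) and without a1 and a12 (the other comparisons). For Gadd45g in kidney they came without a16 and a17 (diet in WT) and without a8 and a17 (the others). For Mfsd2a they came without a8 and a17 under SFD, a5 and a4 under HFD and a5 and a17 over both diets, for Igf2bp1 without a11 and a15, and for Prlr without a6 and a16. The highest aortic values came without R-10 in WT and R-11 in KO. No paired analysis was possible because the groups compared share no replicate numbers in the labels.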
